A study of Mus musculus with 3 samples.

Results

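The 94 nuclear genes described here encode or help to build the enzymes of mitochondrial respiration, and they were taken from a table of 52550 genes by their names: the Nduf families a, b, c, s and v (with Ndufab1), Sdha to Sdhd, names that begin with Uqcr, Cyc1, names that begin with Cox4 to Cox8, and names that begin with Atp5. Rows whose names hold "-ps" were left out, and all 7 of them were processed pseudogenes. By their known roles, 83 of the 94 are structural subunits (36 of complex I, 4 of complex II, 9 of complex III, 19 of complex IV and 15 of complex V) and 11 are factors that the name pattern also takes. Of the structural subunits, 8 are tissue-restricted paralogs in complex IV and the other 75 are called constitutive below.

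Complexes I and II pass electrons from NADH and from succinate to ubiquinone, complex III passes them on to cytochrome c, and complex IV hands them to oxygen. Complexes I, III and IV pump protons across the inner mitochondrial membrane, and complex V, the ATP synthase, uses the gradient to make ATP. All but complex II also hold subunits encoded in the mitochondrial genome. Several complex IV subunits exist as pairs of paralogs, 1 made in most tissues and 1 mainly in striated muscle, testis or vessel walls.

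The RNA came from male mice at 10 weeks of age with the genotype LepRCRE::Ai32, in which Cre made from the leptin receptor gene switches on a yellow fluorescent channelrhodopsin. A reporter of this kind marks cells in which Cre has acted, whether or not the driving gene is still on. Live fluorescent cells (labelled LepR+) were sorted from superior cervical ganglia, the sympathetic ganglia of the neck, and made into Smart-Seq2 libraries, a full-length cDNA method that amplifies by PCR. There is 1 group of 3 libraries labelled as biological replicates and no second condition, so n = 3 throughout and levels are set against a fixed level or within a library. No source used here gives the numbers of cells and animals behind each library, so p-values measure the spread between these libraries.

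The libraries held from 8160258 to 8677804 reads on genes, and 27402 genes had a read in at least 1 of them. The series title calls the cells perineurial. Of 5 perineurial markers, 4 were read in every library with a summed level of 257 to 376 TPM (reads per length of gene, scaled to the same library total), and Krt19 had no read. Cldn1 gave most of that sum (216, 246 and 220 TPM in replicates 1, 2 and 3), followed by Tjp1 (38.5, 64.2 and 35.4 TPM). Slc2a1 (14, 305 and 4 reads) and Itgb4 (15, 576 and 19 reads) were low in replicates 1 and 3. The 5 markers of satellite glia and Schwann cells summed to 18754 to 22801 TPM and the 4 fibroblast markers to 4238 to 6463 TPM. Whether these came from several kinds of cell or from 1 was not tested. In bulk RNA, fewer cells of a type and less RNA per cell cannot be told apart.

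The promoters of 4 members are shown first as examples. Any of the motifs of general respiratory gene factors searched further on was found for 59.7% of constitutive subunits with a matched promoter. Over all genes with a promoter the share was 15.9%. The muscle paralog Cox8b, without a read here, carries none of these motifs. Most genes carry none either, and whether motifs go with the level of a gene was not tested. Each sequence is RefSeq's, build GRCm38.p6, minus strand, and runs 5′ to 3′ from 250 bases before to 50 after a start site. Capitals mark matches on either strand to the NRF1 motif (GCGCA, any base, then GCGC) or to CCGGAAG (the ETS motif bound by GABP).

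Cox8a, chr19:7217567-7217866: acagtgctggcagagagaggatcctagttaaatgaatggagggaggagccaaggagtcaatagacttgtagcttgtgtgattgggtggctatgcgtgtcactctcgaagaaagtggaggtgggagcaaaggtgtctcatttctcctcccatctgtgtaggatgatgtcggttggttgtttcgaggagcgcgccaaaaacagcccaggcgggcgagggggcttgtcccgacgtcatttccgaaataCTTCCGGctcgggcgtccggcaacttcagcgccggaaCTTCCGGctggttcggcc

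Cox8b, chr7:140900397-140900696: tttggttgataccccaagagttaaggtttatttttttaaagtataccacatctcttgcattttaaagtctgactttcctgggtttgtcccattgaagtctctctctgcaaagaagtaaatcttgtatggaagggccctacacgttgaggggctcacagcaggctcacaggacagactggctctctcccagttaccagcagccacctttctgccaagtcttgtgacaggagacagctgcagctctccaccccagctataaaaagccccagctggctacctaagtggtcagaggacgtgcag

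Cox6a1, chr5:115348909-115349208: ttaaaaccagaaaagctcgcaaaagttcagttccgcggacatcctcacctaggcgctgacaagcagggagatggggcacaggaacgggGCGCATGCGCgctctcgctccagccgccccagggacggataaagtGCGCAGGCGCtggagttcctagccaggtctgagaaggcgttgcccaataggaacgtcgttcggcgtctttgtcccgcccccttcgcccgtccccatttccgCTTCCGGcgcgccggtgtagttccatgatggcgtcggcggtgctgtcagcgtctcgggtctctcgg

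Atp5c1, chr2:10080383-10080682: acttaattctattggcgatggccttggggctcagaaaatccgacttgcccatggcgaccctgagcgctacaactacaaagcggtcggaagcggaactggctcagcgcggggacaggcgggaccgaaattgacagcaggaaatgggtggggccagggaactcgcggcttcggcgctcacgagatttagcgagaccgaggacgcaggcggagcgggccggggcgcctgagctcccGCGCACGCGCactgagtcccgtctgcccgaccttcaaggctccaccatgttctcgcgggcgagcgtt

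The Cox8a window held the ETS motif at 2 places, the Cox6a1 window held the NRF1 motif at 2 places and the ETS motif once, and the Atp5c1 window held the NRF1 motif once. A second annotated start of Atp5c1, at chr2:10080461-10080760, held none. The Cox8a window was 56.0% G and C with 19 CpG, against 48.3% with 2 CpG for Cox8b.

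The constitutive subunits were abundant and read in every library. All 75 reached at least 1 TPM in each of the 3 libraries, and 67 of them reached at least 10 TPM in each. Their median level was 114.9 TPM, against 1.15 TPM over all 27402 genes tested. Together the 94 members took 1.11%, 1.71% and 1.03% of all TPM in replicates 1, 2 and 3 (mean 1.28% ± 0.370, SD, n = 3). The order of the complexes by summed share was I (0.455% ± 0.127), IV (0.315% ± 0.126), V (0.206% ± 0.0416), III (0.161% ± 0.0642) and II (0.0614% ± 0.0177), and the sum grows with the number of subunits. By the median level of a constitutive subunit the order was complex IV (238.9 TPM), II (166.4 TPM), III (143.7 TPM), I (102.9 TPM) and V (98.7 TPM). Complex IV led in each library, but the neighbours in this order did not hold theirs: the median of complex III was above that of II in replicate 2 (209 against 165 TPM) and replicate 3 (135 against 95.8 TPM), and that of V above I in replicate 2 (146 against 121 TPM). The order also depends on the annotated exon length used in TPM. Per length of each gene's principal transcript, the median of complex IV would still lead, but that of V would stand above II and I.

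**Figure D1:**
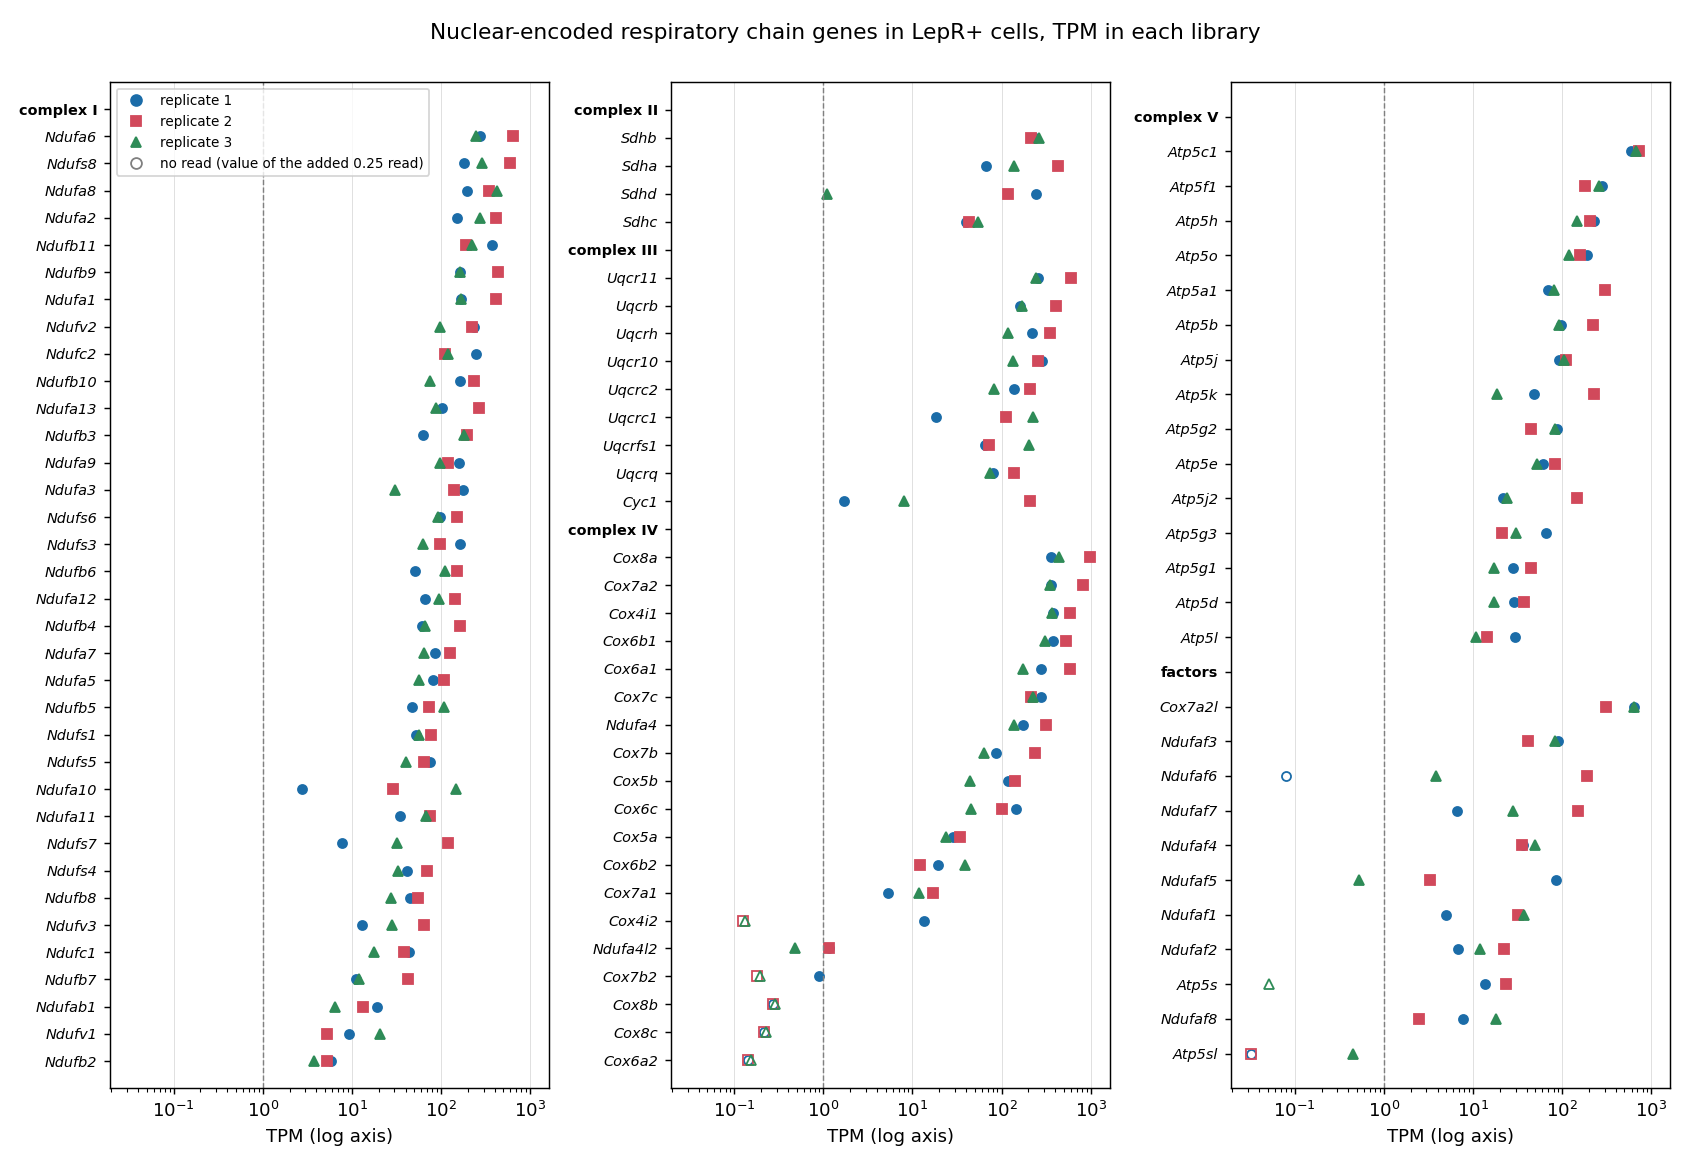
Level of 93 of the 94 members in TPM (log axis) in replicates 1 (circles), 2 (squares) and 3 (triangles), grouped by complex and ordered by mean. Open symbols are libraries without a read, drawn at the value left by the 0.25 read that the deposited values contain, and the dashed line is 1 TPM. All constitutive subunits drawn lie right of the line in every library, while most open symbols are restricted paralogs of complex IV.

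To ask which genes stood above or below 1 TPM, limma's moderated test compared the mean of log2(TPM + 1) with that level for all 27402 genes (two-sided, Benjamini-Hochberg, threshold 0.05). Of the 94 members, 91 were tested, 76 were called above 1 TPM, 0 were called below it and 15 were not called, whereas 16.3% of all genes tested were called above and 14.1% below. In the same fit an unadjusted p under 0.05 placed 81 members above and 1 below. Of genes that averaged 50 TPM or more, 76.9% were called above. By complex, the calls above took 33 of 36 genes in complex I, 3 of 4 in II, 8 of 9 in III, 13 of 19 in IV, 15 of 15 in V and 4 of the 11 factors. With 3 libraries these calls lean on every one of them: limma called 0 members without replicate 1, 0 without replicate 2 and 41 without replicate 3 (8.89% of all genes tested without replicate 3, and 0 without either of the others), where an unadjusted p under 0.05 placed 76, 74 and 70 members above.

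Complex I is the largest enzyme of the chain, with 7 nuclear-encoded core subunits that hold the flavin and the iron-sulfur clusters and 29 accessory subunits in this set. The accessory gene Ndufa6 (chr15:82350140-82354322), whose product is a LYR-motif protein of the hydrophilic arm, had the highest mean, with 271, 645 and 246 TPM in replicates 1, 2 and 3. The core gene Ndufs8, which encodes an iron-sulfur protein, followed with 180, 596 and 285 TPM. Both were highest in replicate 2, while the other libraries lay closer to each other. Over all 36 genes the means ran from 4.94 to 387 TPM.

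The lowest of complex I were Ndufb2, an accessory subunit of the membrane arm, and Ndufv1, the core subunit that binds the flavin and oxidises NADH. Ndufb2 had 5.79, 5.22 and 3.80 TPM, a log2(TPM + 1) of 1.56 ± 0.196 (SE) above the level (adjusted p = 0.0284). Ndufv1 (chr19:4007384-4012806) had 9.20, 5.31 and 20.6 TPM, 2.48 ± 0.438 above it (adjusted p = 0.0485, a value that many genes share through the adjustment). Both genes were thus called, but Ndufb2 was below 10 TPM in each library and Ndufv1 in 2 of 3. The level of Ndufb2 depends on its length: 83, 75 and 51 reads are divided by 5628 bases of annotated exons. Its principal transcript has 4371 bases, of which 315 are coding. Per length of the principal transcripts, Ndufb2 and Ndufv1 would still have the lowest means (6.36 and 17.8 TPM). Exons of Ndufb2 also overlap those of 1 gene on the same strand and 2 on the other.

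Of the subunits of complex I with a mean of 5 TPM or more, the steadiest were Ndufs1, the largest core subunit, with 51.9, 76.4 and 56.4 TPM, and Ndufa9, an accessory subunit with a dehydrogenase-like fold, with 159, 121 and 96.3 TPM. Their highest library exceeded the lowest 1.47-fold and 1.65-fold, and that of the low Ndufb2 1.52-fold. Exons of Ndufs1 overlap those of Eef1b2 on the other strand, and since the strand setting of the counting is not given, reads of such neighbours cannot be told apart.

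Among the other core genes, Ndufv2, an iron-sulfur protein next to the flavin, had 234, 222 and 97.9 TPM and Ndufs3 had 164, 98.4 and 62.4 TPM. Ndufab1, the mitochondrial acyl carrier protein that also serves fatty acid synthesis, had 18.9, 13.3 and 6.51 TPM. Ndufs4, an accessory subunit whose loss in mice models Leigh syndrome, had 41.3, 69.2 and 33.0 TPM, and Ndufs6 had 98.2, 153 and 91.8 TPM. These 5 genes were called, and the largest ratio of highest to lowest library among them was 2.90, that of Ndufab1.

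At the other end, Ndufs7 and Ndufa10 were among the 3 genes of complex I that were not called. Ndufs7, a core subunit that carries the last iron-sulfur cluster before ubiquinone, had 7.80, 120 and 31.7 TPM (adjusted p = 0.0521). Ndufa10 (chr1:92439010-92473860), an accessory subunit of the membrane arm, had 2.73, 28.8 and 145 TPM from 23, 245 and 1159 reads (adjusted p = 0.105). They differed 15.4-fold and 53.2-fold between their highest and lowest libraries. Both were lowest in replicate 1, but Ndufs7 was highest in replicate 2 and Ndufa10 in replicate 3.

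Complex II has 4 subunits and is also the succinate dehydrogenase of the citric acid cycle. Sdhb, its iron-sulfur protein, was even across libraries with 234, 211 and 261 TPM, and the membrane anchor Sdhc had 39.7, 43.1 and 54.5 TPM. Sdha, the flavoprotein that oxidises succinate, had 66.6, 430 and 137 TPM, 6.46-fold from lowest to highest. These 3 genes were called above 1 TPM (adjusted p = 0.00337 for Sdhb, 0.00379 for Sdhc and 0.0169 for Sdha).

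Sdhd (chr9:50596357-50603812), the partner of Sdhc in holding the haem of complex II in the membrane, had 245, 119 and 1.10 TPM from 770, 374 and 3 reads. It was the only constitutive subunit with fewer than 10 reads in a library, and it was not called (adjusted p = 0.143). In the libraries of replicates 1 and 2 it exceeded Sdhc, its partner, whereas in replicate 3 it was about the level of 3 reads (1.02 TPM).

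Complex III has 4 core or catalytic nuclear subunits here and 5 small accessory ones. All 5 accessory genes were called, and the highest were Uqcr11 with 258, 598 and 241 TPM and Uqcrb with 159, 410 and 169 TPM. Uqcrq, the lowest of the 5, had 80.6, 137 and 73.8 TPM. Each of these 3 was highest in replicate 2, and the median ratio of highest to lowest library over the 5 genes was 2.48. Uqcrh (the hinge protein) had 218, 350 and 118 TPM and was also highest in replicate 2, while Uqcr10 had 284, 253 and 135 TPM. Of the 5 genes, 4 were thus highest in replicate 2, and 4, all but Uqcrb, were lowest in replicate 3.

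The core genes of complex III spread more. Cyc1 (chr15:76343523-76346260), the haem protein cytochrome c1 that hands electrons to cytochrome c, had 1.72, 207 and 8.14 TPM from 12, 1475 and 54 reads, and it was not called (adjusted p = 0.198). Uqcrc1, a core protein on the matrix side, had 18.2, 111 and 223 TPM (adjusted p = 0.0485). Its partner Uqcrc2 had 138, 209 and 83.2 TPM, and Uqcrfs1, the Rieske iron-sulfur protein, had 65.8, 73.2 and 201 TPM. Within 1 enzyme, Cyc1 was therefore lowest in replicate 1 and highest in replicate 2, while Uqcrc1 and Uqcrfs1 were highest in replicate 3.

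Complex IV, cytochrome c oxidase, takes its catalytic subunits from the mitochondrial genome, and the nuclear genes encode the smaller subunits around them. All 11 constitutive genes were called above 1 TPM. Cox8a (chr19:7215153-7217616), a small single-pass membrane subunit, had 359, 981 and 440 TPM, the highest mean of the complex as deposited. Cox7a2, the liver-type form of subunit 7A that most tissues use, followed with 356, 827 and 351 TPM. Both were highest in replicate 2, more than 2-fold above the other libraries.

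Cox5a, a matrix-side subunit, was the lowest of the 11 with 28.5, 34.1 and 23.7 TPM. Cox7b had 86.2, 235 and 62.7 TPM and Cox6a1 had 277, 591 and 174 TPM, the largest ratios among the 11 at 3.75 and 3.40. Cox7c had 280, 212 and 225 TPM, the smallest ratio of the 11 at 1.32. Cox6b1 had 375, 535 and 308 TPM, Cox5b had 119, 141 and 44.2 TPM and Cox6c had 145, 101 and 45.5 TPM. No constitutive gene of complex IV reached a ratio of 10 between libraries.

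The restricted paralogs of complex IV were low or without reads, which the plot of paralog pairs shows beside their constitutive partners. Cox6a2 and Cox8b, the striated muscle forms of subunits 6A and 8, and Cox8c, a testis form of subunit 8, had no read in any library and were not tested. The level of 3 reads, which a count of 0 allows, was 1.73, 1.72 and 1.84 TPM for Cox6a2 in replicates 1, 2 and 3, 3.26, 3.26 and 3.48 TPM for Cox8b, and 2.56, 2.56 and 2.74 TPM for Cox8c. Cox6a1 was at least 160, 343 and 94.4-fold above Cox6a2 in replicates 1, 2 and 3, and Cox8a at least 110, 301 and 126-fold above Cox8b, each computed against the level of 3 reads in that library. These floors cover counting error only, since PCR copies are not independent molecules.

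Of the 4 muscle markers Myh1, Ckm, Acta1 and Myl2, none was read in every library, their sum was 0.418, 0.286 and 0.718 TPM, and Ckm and Myl2 had no read. The third muscle form, Cox7a1 (chr7:30184144-30186078), was nevertheless read in every library, with 5.30, 17.0 and 11.9 TPM from 7, 23 and 15 reads (2.51 ± 0.386 above the level, adjusted p = 0.0453). Cox7a1 is also known from brown fat. Its partner Cox7a2 stood 5.37 ± 0.54 (SD) higher in log2(TPM + 1), which is 67.2, 48.7 and 29.5-fold in TPM in the 3 libraries.

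The testis forms differed among themselves. Cox6b2 (chr7:4751792-4753094) had 19.2, 12.1 and 38.9 TPM from 54, 34 and 103 reads and was called above 1 TPM (adjusted p = 0.0236), while Cox7b2 had 1, 0 and 0 reads (adjusted p = 0.182). Cox6b1 was 19.6, 44.3 and 7.92-fold above Cox6b2, the smallest gap among the complex IV pairs in replicate 3. Together Cox6b2 and Cox7a1 were the only restricted paralogs called, 2 of the 5 that could be tested.

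The remaining forms are known from hypoxia and from vessel walls. Cox4i1 had 381, 591 and 370 TPM, whereas its partner Cox4i2 (chr2:152754173-152765037) had 27, 0 and 0 reads, that is 13.5 TPM in replicate 1 and less than the 3-read level of 1.49 and 1.59 TPM in replicates 2 and 3 (adjusted p = 0.760). Ndufa4, a subunit once counted with complex I, had 176, 313 and 139 TPM, against 3, 3 and 1 reads for Ndufa4l2 (adjusted p = 0.803). Markers of mural cells, a list of 12 genes added after the data were seen, of which 9 were read in every library, summed to 580, 654 and 137 TPM, with Rgs5 at 225, 124 and 33.8 TPM and Kcnj8 without a read in replicates 1 and 2. Of the 12, 5 were highest in replicate 1, the library with the Cox4i2 reads, among them Rgs5 and Acta2 (158, 37.6 and 15.8 TPM), and 4 in replicate 2, among them Vtn (78.9, 291 and 2.11 TPM) and Mcam (33.8, 150 and 45.3 TPM). Their part in the Cox4i2 reads was not tested.

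**Figure D2:**
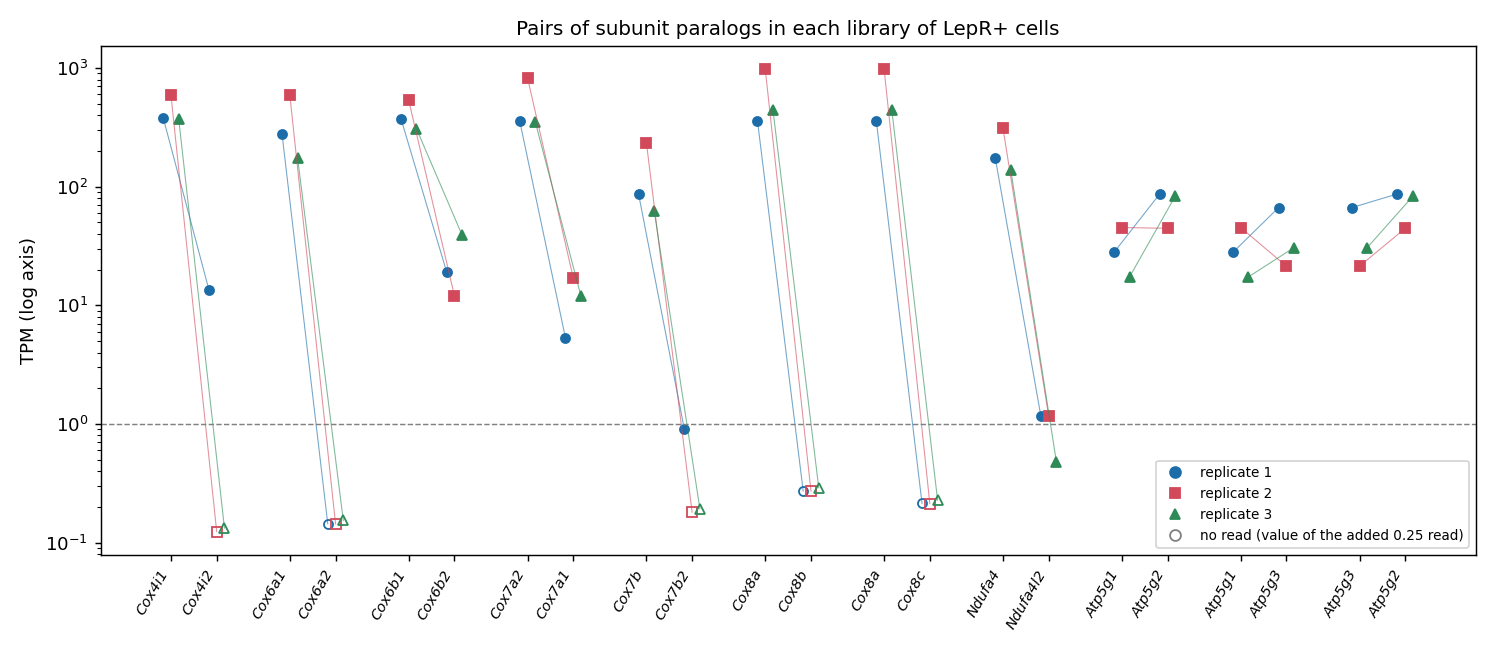
TPM (log axis) of both genes of each of the 11 paralog pairs in replicates 1 (circles), 2 (squares) and 3 (triangles), joined within a library, with open symbols where a library had no read. In the 8 pairs of complex IV every line falls to the restricted form, while the lines between the 3 c-subunit genes at the right slope either way or lie flat.

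In all 8 pairs of complex IV the constitutive form was higher in 3 of 3 libraries, by means of 4.18 to 8.79 in log2(TPM + 1). The exact two-sided sign-flip test over the 3 libraries gave p = 0.25 for each, the smallest it can give, and 0.306 after Benjamini-Hochberg adjustment over the 11 pairs. On this scale differences from a gene without reads depend on the added 1 TPM.

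Complex V was called above 1 TPM in full. Its F1 head turns the rotor's motion into ATP. Atp5c1 (chr2:10056016-10080510), the gamma shaft of the rotor, had the highest mean TPM of all 94 members as deposited, 598, 729 and 669 TPM, and varied 1.22-fold. The catalytic beta subunit Atp5b had 98.0, 220 and 91.6 TPM, and its partner Atp5a1, the alpha subunit, had 68.6, 302 and 80.4 TPM. Atp5d (delta) had 29.1, 36.9 and 17.2 TPM and Atp5e (epsilon) had 60.7, 82.4 and 52.4 TPM. All 5 F1 genes were highest in replicate 2, although their means spanned 27.7 to 665 TPM for subunits of 1 enzyme. Atp5c1 has 1 near-identical annotated pseudogene.

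The peripheral stalk, which holds the head still against the membrane, was the steadiest of the sets of complex V. Atp5f1 (b) had 278, 179 and 258 TPM, Atp5h (d) had 228, 203 and 149 TPM, Atp5o (the oligomycin sensitivity protein) had 188, 160 and 118 TPM, and Atp5j (F6) had 93.2, 111 and 104 TPM. The median ratio of highest to lowest library was 1.54 over these 4 genes, and 3 of the 4 were highest in replicate 1. Exons of Atp5j overlap those of Gabpa on the other strand, which had 212, 55.3 and 83.4 TPM.

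The 3 genes Atp5g1, Atp5g2 and Atp5g3 encode the same mature c subunit of the rotor ring with different import sequences. Atp5g1 had 28.0, 45.3 and 17.4 TPM, Atp5g3 had 66.6, 21.4 and 30.7 TPM and Atp5g2 had 87.0, 44.6 and 83.4 TPM. Atp5g2 gave 47.9%, 40.1% and 63.4% of the summed TPM of the 3 genes. Atp5g3 minus Atp5g2 was -0.94 ± 0.52 in log2(TPM + 1), lower in 3 of 3 libraries (exact sign-flip p = 0.25, adjusted 0.306). Atp5g1 and Atp5g3 changed order between libraries, with a difference (Atp5g1 minus Atp5g3) of -0.32 ± 1.21 overall and 0.13 without replicate 1, and Atp5g1 minus Atp5g2 was -1.26 ± 1.15 with 1 of 3 libraries higher. No difference between the 3 genes passed the test. Among the pairs, the order of Atp5g3 and Atp5g2 alone was the same in every library in TPM as deposited. These orders depend on the annotated exon length, which is 4912 bases for Atp5g1, 1675 for Atp5g2 and 2181 for Atp5g3. Per length of the principal transcript, Atp5g1 would be lowest in every library (29.2, 47.2 and 18.1 TPM). Atp5g3 (201, 64.4 and 92.6 TPM) and Atp5g2 (199, 102 and 191 TPM) would then change order between libraries. That rank of Atp5g1 rests on the transcript taken, with ties settled by the longest coding and then exon length. It has 4715 bases for Atp5g1, against 731 for Atp5g2 and 723 for Atp5g3, while the coding lengths are 408, 438 and 423 bases. In reads, Atp5g1 had 351, 569 and 204, Atp5g2 had 372, 191 and 334, and Atp5g3 had 371, 119 and 160.

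The 3 small membrane subunits at the dimer interface had the largest median ratio between libraries of the sets of complex V (6.81), although Atp5l (2.70) was more even than Atp5a1 (4.41). Atp5k (e) had 48.4, 229 and 18.5 TPM, Atp5j2 (f) had 21.5, 146 and 24.3 TPM and Atp5l (g) had 29.5, 14.4 and 10.9 TPM. Atp5k and Atp5j2 were 12.4-fold and 6.81-fold higher in their highest library, replicate 2, than in their lowest. Atp5l has 9 near-identical copies among annotated transcripts, 8 of them pseudogenes. The TPM divides its reads by 6443 bases of annotated exons, where its principal transcript has 544. Per length of that transcript its mean would be 216 TPM in place of 18.3 TPM.

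The factors were less even than the subunits. Cox7a2l, which joins complexes III and IV into supercomplexes, had 644, 308 and 642 TPM, a level like that of the abundant subunits, and Ndufaf3, a complex I assembly factor, had 89.1, 41.4 and 82.7 TPM. The lowest were Ndufaf8 with 7.63, 2.46 and 18.2 TPM and Atp5sl with 0, 0 and 3 reads. Only Cox7a2l, Ndufaf2, Ndufaf3 and Ndufaf4 were called. Ndufaf6 had 0, 608 and 11 reads and Ndufaf5 had 391, 15 and 2. Of the 11 factors, 5 (45.5%) differed over 10-fold between libraries, against 7 of the 75 constitutive subunits (9.33%). The share of the factors was near that of all genes tested (41.3%) and of genes that averaged 5 TPM or more (53.6%).

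The ratio of highest to lowest library summarises this spread. Its median was 2.50 over the 75 constitutive subunits, against 3.39 over the 3439 genes that averaged 50 TPM or more, and 9.33% of the subunits exceeded 10, against 27.8% of those genes. The 15 core or catalytic subunits of complexes I to III had a median of 3.32, and 5 of them (33.3%) exceeded 10, among them Sdhd, Cyc1, Ndufs7 and Uqcrc1. The 34 accessory subunits of complexes I and III had a median of 2.49, and 1 of them (2.94%), Ndufa10, exceeded 10. The core genes are longer (median exon length 2313 bases against 1227) at a like level (median 117 against 109 TPM), and the part of length in the spread was not tested. This grouping was chosen after the values were seen and has no test.

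**Figure D3:**
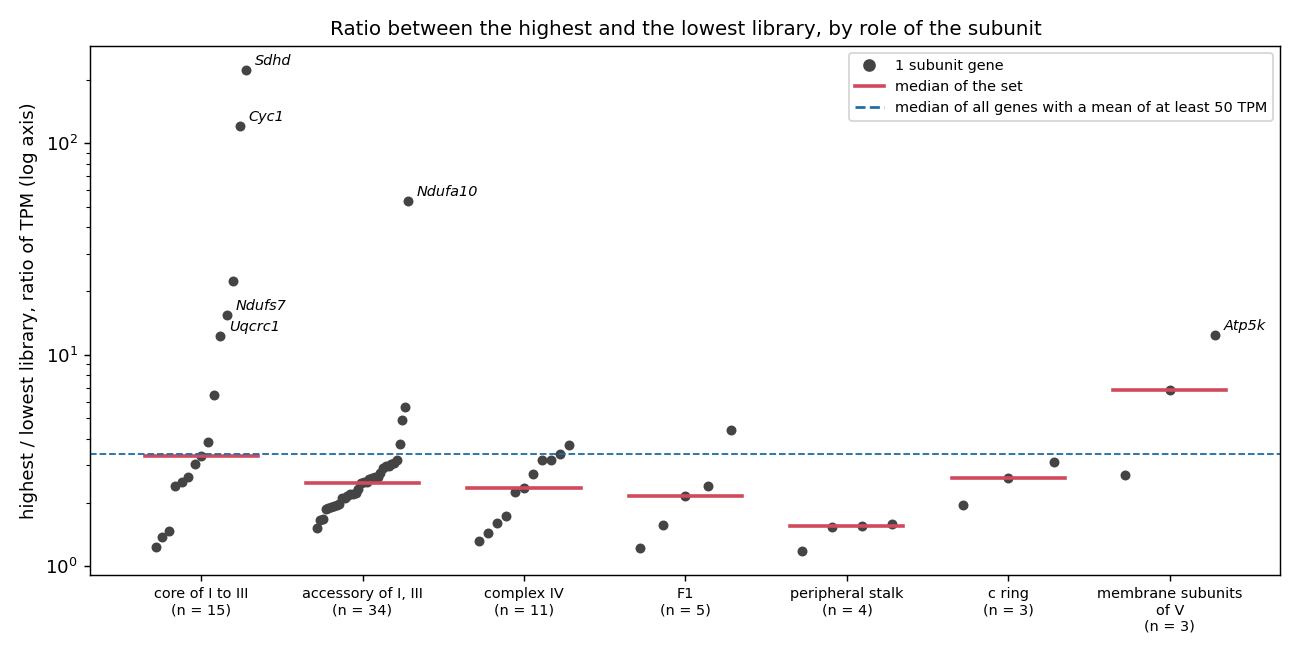
Ratio of the highest to the lowest library in TPM (log axis) for each of the 75 constitutive subunits, grouped by role, with the median of each set as a bar and the median of all genes that averaged 50 TPM or more as a dashed line. Of the genes, 7 exceed a ratio of 10 (6 are labelled), 5 of them core subunits of complexes I to III, while the 4 peripheral stalk genes lie between 1.19 and 1.59.

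Most subunits were highest in the same library. Replicate 2 held the highest value of 46 of the 75 constitutive subunits (61.3%), replicate 1 of 20 and replicate 3 of 9, and in complex IV it held 9 of 11. Over all genes tested, replicate 2 was highest for 33.0%, and over other protein-coding genes that averaged 50 TPM or more for 30.7% (41.2% of those with exons under 2000 bases, 28.2% of the longer ones). The cytosolic ribosomal protein genes at this level were highest there in 53 of 68 cases (77.9%). The mitochondrial ribosomal protein genes, taken at any level and lower (library medians of 17.8 to 28.2 TPM), were highest there in 30 of 77 (39.0%). The median constitutive subunit had 146 TPM in replicate 2, against 93.2 TPM in replicate 1 and 91.6 TPM in replicate 3. Subunits of 1 enzyme share their library, so these counts describe 3 libraries and carry no test.

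**Figure D4:**
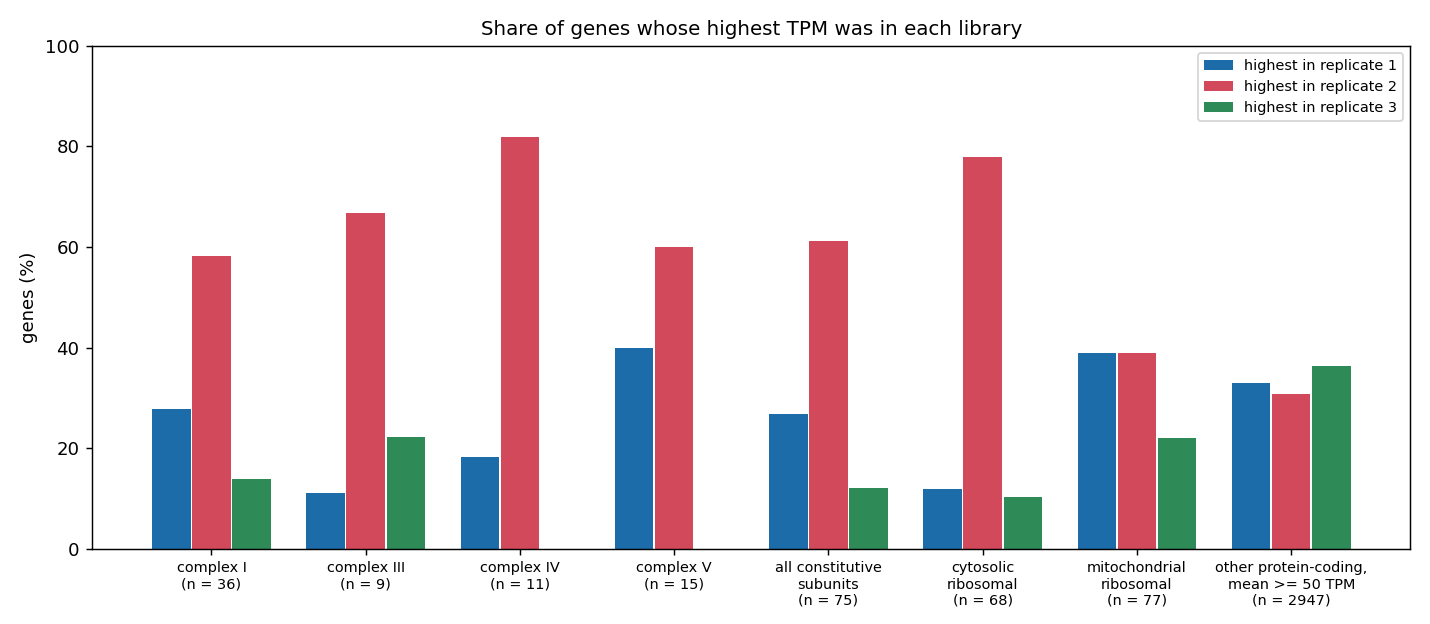
Percent of genes whose highest TPM fell in replicate 1, 2 or 3, for constitutive subunits by complex, all 75 of them, ribosomal protein genes and other protein-coding genes that averaged 50 TPM or more, with the number of genes under each set. Replicate 2 takes 81.8% of complex IV and 77.9% of the cytosolic ribosomal genes, against 30.7% of the other genes.

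Single markers of several kinds of cell stood out in replicate 2 too. Of the 5 perineurial markers, 4 were highest there, among them Slc2a1 (1.59, 34.0 and 0.507 TPM) and Itgb4 (0.851, 32.1 and 1.15 TPM). Of the glial markers 1 of 5 was highest there, Sox10, and of the endothelial ones 1 of 3, Pecam1. Large ratios were common: 53.6% of genes that averaged 5 TPM or more differed over 10-fold between libraries. The 4 neuronal markers summed to 52.6 TPM in replicate 2, against 0.885 and 1.25 TPM in replicates 1 and 3. None of them was read in every library, Npy had no read in any, and Tubb3 gave nearly all of the sum with 243 reads. The 3 macrophage markers summed to 63.3 TPM there, against 0.408 and 11.8 TPM, with Cd68 at 196 reads and no read in the other libraries. The other macrophage markers were highest in replicate 3, Ptprc with 0.0695, 1.90 and 11.1 TPM and Csf1r with 3, 5 and 7 reads, as was the neuronal marker Th. The members' mean share of TPM was 1.07% without replicate 2, against 1.28% with it. The part of any of these kinds of cell in the higher levels was not tested.

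The subunits that the mitochondrial genome adds to these enzymes were far more unequal than the nuclear ones. All 13 were called above 1 TPM. Cytochrome b of complex III, mt-Cytb, had 99876, 95678 and 107905 TPM, and mt-Nd1 of complex I had 40695, 39049 and 39670 TPM. The lowest were mt-Nd3 with 20.5, 73.3 and 38.7 TPM and mt-Nd4l with 49.1, 42.4 and 35.5 TPM. In complex IV the catalytic subunit mt-Co1 had 25374, 27238 and 27194 TPM while mt-Co3 had 82.0, 129 and 88.6 TPM, and in complex V mt-Atp6 had 274, 324 and 295 TPM. The nuclear members summed to far less than these in complexes I, III and IV, but in complex V to more: 0.206% of TPM, against 0.0365% for mt-Atp6 and mt-Atp8 together. Nuclear copies of mitochondrial genes can share their reads, which was not tested.

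The genes around the chain were described from 5 further lists. For comparison, 16.3% of all genes tested were called above 1 TPM and 14.1% below, and 43.5% of genes that averaged 5 TPM or more were called above. Of 11 genes for cytochrome c, carriers and channels, 8 were called above and 0 below, 2 were not called and 1 had no read. Among them the nucleotide carriers Slc25a5 with 420, 618 and 500 TPM and Slc25a4 with 112, 364 and 281 TPM were the highest, Slc25a31, a testis carrier, had 1 read in each library, and the testis cytochrome Cyct had no read. The somatic cytochrome c gene Cycs had 85.6, 147 and 85.6 TPM. The testis forms of this list thus had at most 1 read in a library, unlike Cox6b2 of complex IV.

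Of 8 other donors of electrons to ubiquinone, 5 were called above and 0 below. Etfa, which carries electrons from fatty acid oxidation, had 287, 102 and 341 TPM and Gpd2, the mitochondrial glycerol phosphate dehydrogenase, had 40.9, 75.4 and 121 TPM. Chdh had 4, 0 and 12 reads and Dhodh 0, 3 and 55. Of 13 genes of ubiquinone synthesis, 3 were called above and 0 below, with a median level of 9.55 TPM. Coq10b had 22.4, 64.9 and 58.2 TPM, Coq9 had 18.5, 18.2 and 20.0 TPM, Coq3 had 22, 1 and 0 reads and Coq8b had 0, 1 and 53. Both lists thus stood well below the constitutive subunits in their medians (20.5 and 9.55 TPM, against 114.9 TPM).

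Of 37 assembly factors outside the name pattern, 11 were called above, 1 (Ecsit) below, 22 were not called and 3 had no read. Tmem70, which acts in ATP synthase assembly, had 229, 219 and 165 TPM and Cox14 had 114, 211 and 254 TPM, while Nubpl and Sco2 had no read. Their median level was 15.2 TPM. Of 12 regulators of mitochondrial gene expression, 3 were called above (Gabpa, Yy1 and Ppargc1a), 1 below (Ppargc1b, with 1, 0 and 1 reads) and 8 not at all. Ppargc1a, a coactivator of respiratory genes, had 38.0, 55.1 and 138 TPM, Nrf1 had 3.36, 3.16 and 1.92 TPM, and Polrmt, the mitochondrial RNA polymerase, had 28, 2 and 0 reads.

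The promoters bring the account back to the sequences above. A RefSeq promoter was matched by symbol for 74 of the 94 members, 62 of them constitutive subunits. The NRF1 motif, searched on both strands, was present for 17 of the 62 (27.4%), against 5.19% of 27025 genes with a promoter. The ETS motif CCGGAAG was present for 16 of 62 (25.8%, against 9.93%) and the YY1 motif AANATGGCG for 10 of 62 (16.1%, against 2.76%). At least 1 of the 3 was found for 37 of 62 (59.7%, against 15.9%), and for 0 of the 4 restricted paralogs with a promoter. Those 4 are too few to set against the 15.9% of all genes. The constitutive promoters were also richer in G and C, with a median of 58.3% against 52.7% over all promoters, and the shares were not matched on that. A match is a description of these letters and not of a bound site.

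The levels also depend on what was counted as the gene. TPM divides reads by the length of all annotated exons, which for the constitutive subunits was a median 1.57 times the principal transcript's (0.925 to 11.8 times), and per principal transcript their median level would be 216 TPM. The order at the top turns with it: Ndufa6 (1838 TPM) would stand above Atp5c1 (1089 TPM), and in complex IV Cox4i1 (906 TPM) and Cox7a2 (732 TPM) above Cox8a (588 TPM). Of the 94 members, 22 have a near-identical copy among annotated transcripts (at least 95% identity over at least 200 bases). Of these 39 copies, 37 are pseudogenes, and 32 members overlap exons of another gene. Copies outside the annotation were not searched for, and less alike ones are not counted: Uqcrh has 0 copies by this rule, although the table holds Uqcrh-ps1 and Uqcrh-ps2. Such levels are uncertain where reads were split or shared. By this search, 50 members have neither a copy nor an overlap. Among the genes described at length, neither was found for Cyc1, Sdhd, Ndufa10, Ndufs7, Uqcrc1, Cox8a, Cox7a2 and Cox6b2.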

How the data were processed

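RNA was measured in 3 Smart-Seq2 libraries of 1 group. The authors deposited log2 TPM per gene; per the submitters' processing notes STAR, featureCounts and the build mm10 (GRCm38) were used, with versions, strand setting and annotation release not given in the sources used here. As the values show, every gene's count was raised by 0.25 read and then divided by exon length. With GENCODE M21 lengths, or for 2758 genes a length solved from the values, whole reads were recovered for 52549 of 52550 genes within 0.02 of a read; reads served for the filter (at least 1 read in at least 1 library), depth and floors of 3 reads, and the planned filter on values above the floor was read this way. All tests used TPM.

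The mean of log2(TPM + 1) was compared with the level at 1 TPM by limma 3.58.1 (R 4.3.3, prior degrees of freedom 1.19), a scale that understates changes of low genes, and checked on simulated data. Paralogs were compared within libraries by an exact sign-flip test. Named members are, per complex, the 2 highest, 2 lowest and 2 most variable, all paralog pairs, structural subunits with a library without reads, and core subunits; others named beyond that (the steadiest, other core and accessory genes, Ndufaf5, Ndufaf6) were chosen after their values were seen. A member is counted throughout but not reported by name here. Members and lists were chosen with earlier results of these data known. Gene coordinates are GENCODE M21's, and copies were searched for among M21 transcripts with blastn 2.17.0. Alternatives covered pseudocount, filter, trend, level, mitochondrial genes, left-out libraries and, added later, transcript length.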

Additional observations from a re-analysis of the deposited data

How the results depend on the processing

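Under a pseudocount of 0.1 TPM, a mean-variance trend, another filter, other levels, rescaling without mitochondrially encoded genes and left-out libraries, calls moved more than levels. Genes called above 1 TPM numbered 4458; 2896 exceeded a level of 10 TPM, and leaving out 1 library gave 0 to 2435 (limma; 4452 to 4646 at an unadjusted p under 0.05). Genes called below numbered 3859 and ranged widely: 15 with a mean of at least 0.5 TPM required, 29850 without a filter, 9657 with the trend, 15567 against 10 TPM, 0 against 0.5 TPM (842 unadjusted), 0 without mitochondrially encoded genes (6246 unadjusted) and 0 to 4898 without 1 library. Members called above ranged from 0 to 41 without 1 library (complex I 0 to 16, II 0 to 2, III 0 to 5, IV 0 to 9, V 0 to 7, factors 0 to 2). Members called below were 4 without a filter, 1 with the trend, 4 against 10 TPM and 0 to 1 without 1 library. Ndufb2 fell under a level of 10 TPM (-0.90, adjusted p = 0.0266), and Atp5g1 minus Atp5g3 ranged from -1.004 to 0.13 when 1 library was left out (0.13 without replicate 1). Without mitochondrially encoded genes all shares of TPM grew alike, to 1.61% for all members, 0.572% for complex I, 0.396% for IV and 0.259% for V. The cause of these moves was not tested, beyond fewer samples or genes by construction. No paired analysis was possible because there is a single group. Depth limits genes under 3 reads in a library.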
